A study of Homo sapiens with 7 samples.

Results

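The transcriptome of a heterozygous ARID1A+/- line of NGP, an established human neuroblastoma cell line with amplified MYCN, was compared with that of control NGP cells. Every gene with at least 1 RPKM (counted reads scaled by gene length and by the library's total) in the ARID1A+/- library or in the control library made with the same kit was included, which took 13723 of the 28517 entries of the deposited tables. The ARID1A+/- line (1 library) and the second control library were prepared with the KAPA mRNA HyperPrep kit. The first control library, made with the SMARTer kit (Universal Low Input), served as a check of direction. Values of 2 ARID1A-/- lines, each with 1 SMARTer and 1 KAPA library, are set beside those of the ARID1A+/- line where they help to place it. All lines grew in medium with serum and puromycin and received no treatment. The position of the mutation, the way the line was made, whether it is a clone and whether the libraries came from separate cultures could not be learned from the labels.

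ARID1A encodes a large subunit of BAF, the human SWI/SNF complex, which uses ATP to move and evict nucleosomes and keeps many enhancers accessible. Neuroblastoma arises from the sympathetic lineage of the neural crest, and its cells can take an adrenergic state, held by factors such as HAND2, GATA3 and PHOX2A, or a mesenchymal state with genes of migration and extracellular matrix. The series as a whole concerns ARID1A loss and the passage between these states.

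The ARID1A+/- library held 33032528 counts, the same-kit control 24445301 and the SMARTer control 43644361. With 1 library on each side, no difference below has a replicate check and none carries a p-value. A difference is that of log2(RPKM + 1), and 2-fold means a difference of at least 1 on that scale, which understates the change of low genes. In bulk RNA, fewer cells with a transcript and less of it per cell cannot be told apart. The line also cannot be told apart from its genotype, since there was 1 such line. Among NGP markers in the ARID1A+/- library, HAND2 stood at 319.5 RPKM, PHOX2A at 185 and MYCN at 783. Of 12 NGP markers 10 reached the expression limit. At least 2-fold lower than both controls were 2 of the 10, STMN2 among them, and none was higher (beside 1.69% and 1.17% of all genes). The median difference of the 10 was 0.08 against the KAPA and -0.55 against the SMARTer control, while the controls differed by 0.62 (SMARTer minus KAPA). The catecholamine enzymes TH and DBH stayed at or below 0.456 RPKM in the ARID1A+/- library and in both controls. None of 6 endothelial or 5 erythroid markers reached it, and 1 of 9 epithelial and 1 of 8 immune markers did.

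ARID1A transcript itself was nearly as abundant in the ARID1A+/- line as in the control. It stood at 19.9 RPKM in the ARID1A+/- library, 22 in the KAPA control and 22.3 in the SMARTer control, a ratio of 0.906 to the same-kit control (95% exact binomial interval 0.873 to 0.942, which like the other such intervals covers counting error only). The 4 ARID1A-/- libraries lay lower, between 13.8 and 17.2 RPKM. A count over the whole gene cannot show which allele the transcripts came from or whether they carry the mutation. None of the 28 measured BAF and PBAF subunits was 2-fold apart from the same-kit control, and their differences ran from -0.52 to 0.60 with a median of 0.12. The ATPase SMARCA4 stood at 71.7 RPKM against 58.5 and 46.7 in the KAPA and SMARTer controls. ARID1B, which takes the place of ARID1A in the complex, stood at 8.93 RPKM against 7.24 and 8.36. In the ARID1A-/- lines ARID1B ranged from 9.77 to 12.5 RPKM, above all 3 of these values.

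Most genes lay close to the control. Of the 13723 genes, 94.8% were less than 2-fold apart from the same-kit control, and the median difference was -0.03. At least 2-fold higher were 338 genes (2.46%) and at least 2-fold lower 379 (2.76%). Against the SMARTer control, 317 of the 338 and 347 of the 379 had the same sign. The 10054 genes ordered along the chromosomes below had to reach 3 RPKM in the ARID1A+/- or same-kit control library. Of these, 65.5% were above 0 against the SMARTer control and 34.5% below. The 2 differences share the ARID1A+/- library, so their agreement is no independent support. At least 2-fold from both controls in the same direction were 161 genes that were higher (1.17%) and 232 that were lower (1.69%), and these are the genes described below as higher or lower than both controls. For scale, the SMARTer control itself was 2-fold higher than the KAPA control for 2.1% of 13884 genes and 2-fold lower for 1.89%. Single KAPA libraries of the ARID1A-/- lines, which share the same control library, were 2-fold higher for 2.61% (line 1) and 2.65% (line 2) of genes and 2-fold lower for 4.18% and 4.51%. At the edge of the 2-fold limit, CDK14 was counted as lower at -1.0002 and NAMPT was not at -0.9974. At the edge of the expression limit, GGACT was kept with 1.0005 RPKM in the control and AOC2 left out with 0.9977.

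**Figure D1:**
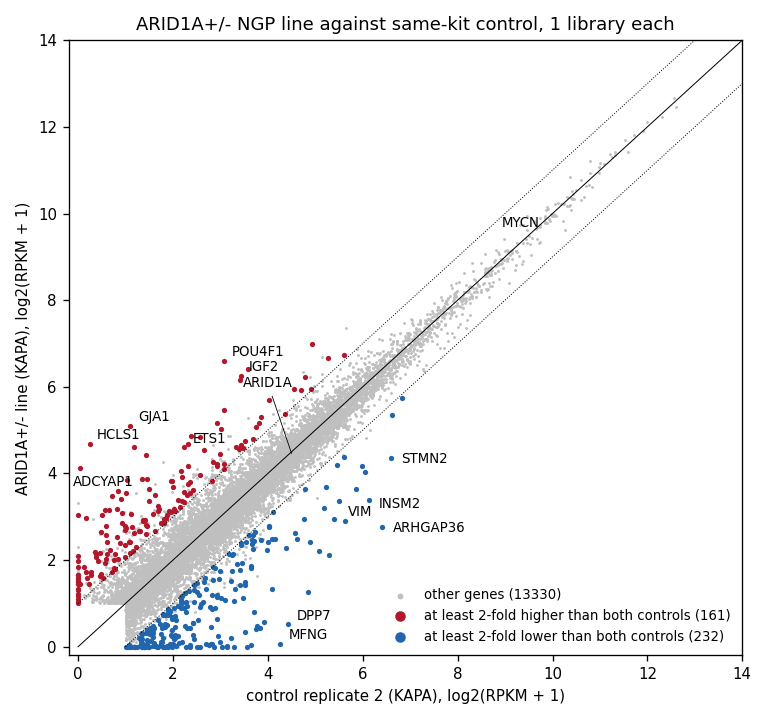
Each point is 1 of the 13723 genes, with its log2(RPKM + 1) in the KAPA control on the x axis and in the ARID1A+/- line on the y axis; the solid line marks equality, the dotted lines a 2-fold difference, red the 161 genes higher and blue the 232 genes lower than both controls. Most genes follow the line of equality, ARID1A among them, and HCLS1, ADCYAP1, GJA1, MFNG and DPP7 lie far from it.

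The 3 genes furthest above the same-kit control, HCLS1, ADCYAP1 and GJA1, stood at or below 1.12 RPKM in both controls. HCLS1, an actin-binding adaptor best known from blood cells, stood at 24.5 RPKM against 0.186 in the KAPA and 0.583 in the SMARTer control, a difference of 4.43. Its level in the ARID1A-/- lines was at most 0.346 RPKM, so the ARID1A+/- library alone was high. GJA1, a connexin of gap junctions, stood at 33.1 RPKM against 1.12 and 0.3001, a difference of 4.01, and ranged from 0.299 to 5.84 in the ARID1A-/- lines. POU4F1, a homeodomain factor of sensory neurons, stood at 96.3 RPKM against 7.38 and 13.6, and at most 27.1 in the ARID1A-/- lines. For these 3 genes the ARID1A+/- library lay above all 6 others. ADCYAP1, which encodes the neuropeptide PACAP, stood at 16.5 RPKM against 0.0242 and 0.136, but here 3 of the 4 ARID1A-/- libraries lay between 13.1 and 22.3. The KAPA library of line 1, of the same kit as the ARID1A+/- library, lay at 1.58. IGFBP3, a secreted binder of insulin-like growth factors, stood at 23.6 RPKM against 1.27 and 5.13 in the controls, with 16.7 to 62.4 in the ARID1A-/- lines.

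The growth factor gene IGF2 stood at 75.1 RPKM in the ARID1A+/- line against 9.76 and 14.1 in the controls, a ratio of 7.70 to the same-kit control (7.30 to 8.12). Line 1 lay at 44.5 and 13.97 RPKM in its KAPA and SMARTer libraries and line 2 at 4.57 and 0.968. Line 2 thus lay below its same-kit control in both kits, while line 1 lay above its control in the KAPA kit only. The overlapping read-through entry INS-IGF2 had nearly the same difference (2.83 against 2.82 for IGF2) and cannot be counted as a separate gene. TEAD2, a DNA-binding partner of YAP, stood at 69.9 RPKM against 9.71 and 10.4. COL5A2, a fibrillar collagen chain, stood at 11.02 RPKM against 0.803 and 0.807, with 0.464 to 1.51 in the ARID1A-/- lines. Also among the 15 largest upward differences were CYTL1 (2.82), the ephrin EFNA2 (2.81), ISLR2 (2.59), the procollagen protease ADAMTS3 (2.53), the vesicular zinc transporter SLC30A3 (2.52) and the homeobox gene TLX1 (2.51). CYTL1, ADAMTS3 and TLX1 were lower in all 4 ARID1A-/- libraries than in either control, and higher in the ARID1A+/- line. The lower side is near the floor, since CYTL1 (0.123 and 0.321 RPKM) and ADAMTS3 (0.428 and 0.506) were below the expression limit in both controls. ADAMTS3 still stood at 0.345 RPKM in the KAPA library of line 2. TLX1 stood at 0.864 and 2.15 RPKM in the controls.

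Among the 15 genes furthest below the controls, the level left in the ARID1A+/- line ranged from 0 to 5.76 RPKM. MFNG, a glycosyltransferase that modifies Notch receptors, had 3 counts in the ARID1A+/- library (0.0425 RPKM) against 18.1 RPKM in the KAPA and 12.2 in the SMARTer control, a ratio of 0.00235 (0.000484 to 0.00689). It was at or below 0.0339 RPKM in the 4 ARID1A-/- libraries, so all 5 libraries with an ARID1A mutation lay far below both controls. The neuropeptide gene NMU had 1 count, against 11.4 and 6.21 RPKM in the controls, and stayed at or below 1.61 RPKM in the ARID1A-/- lines. DPP7, a peptidase of intracellular vesicles, stood at 0.449 RPKM against 20.6 and 25.3, while the ARID1A-/- lines kept 6.59 to 33.4. ARHGAP36, an inhibitor of protein kinase A, stood at 5.76 RPKM against 84.4 and 226, with 73.3 to 396 in the ARID1A-/- lines. The ARID1A+/- library was therefore the lowest of all 7 for DPP7 and ARHGAP36.

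TBX3, BMP7 and BARX1, which encode regulators of development, were also among these 15. TBX3, a T-box repressor, stood at 0.144 RPKM against 8.38 and 6.04, and all 4 ARID1A-/- libraries lay above the controls at 15.2 to 34.8. BMP7, a bone morphogenetic protein, stood at 0.736 RPKM against 12.1 and 12.2, with 4.74 to 14.03 in the ARID1A-/- lines. BARX1, a homeobox gene, stood at 0.0877 RPKM against 6.92 and 3.35. Its level was 1.09 and 1.08 RPKM in ARID1A-/- line 1 and 10.4 and 11.3 in line 2. The others were HEBP1 (-3.16), the potassium channel gene KCNJ8 (-3.13), TRIM21 (-3.04), LPL (-2.87), S100A11 (-3.56) and 3 cancer-testis antigens. S100A11, a calcium-binding protein, is the least certain of them, since the controls differed widely, at 10.8 RPKM (KAPA) and 1.93 (SMARTer).

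**Figure D2:**
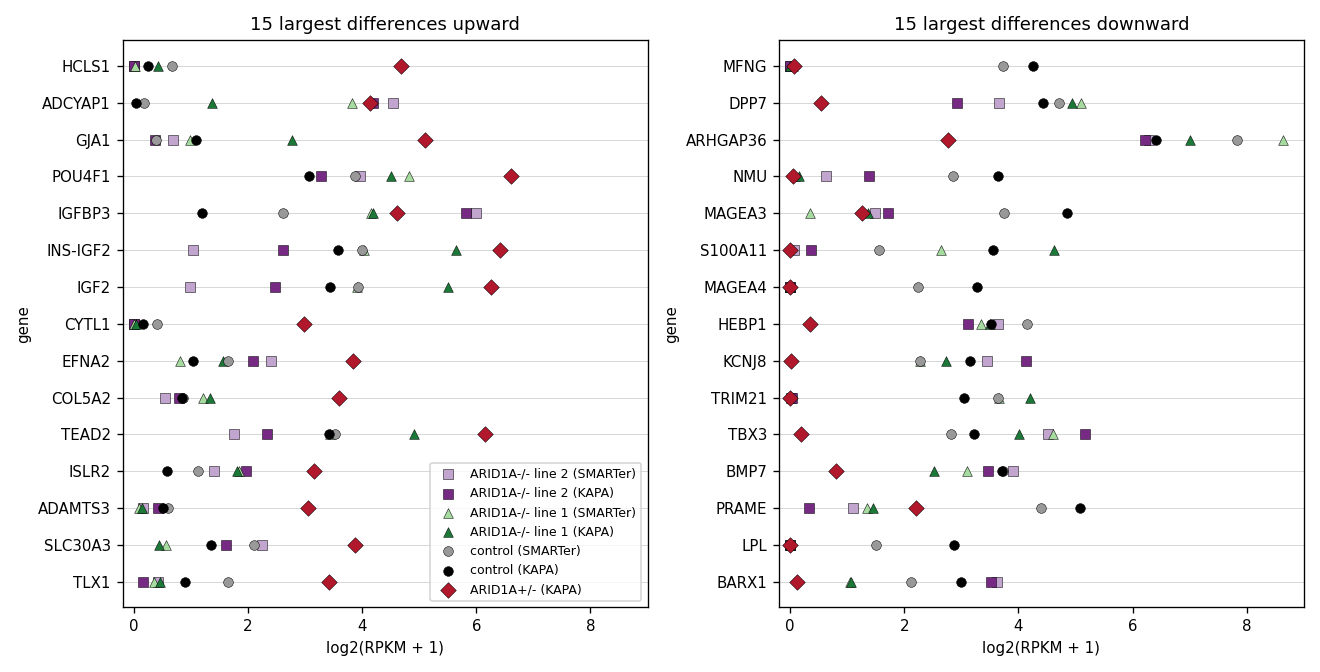
Each row is 1 of the 15 genes with the largest upward (left) or downward (right) difference among those 2-fold from both controls, and each symbol is 1 library on a log2(RPKM + 1) axis, with no error bars since each is a single library. The ARID1A+/- diamond stands apart from all other libraries for HCLS1, GJA1, DPP7 and ARHGAP36, and beside the ARID1A-/- symbols for MFNG, MAGEA4 and LPL. For ADCYAP1 it stands beside those symbols except the KAPA library of line 1.

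Some genes had no count at all in the ARID1A+/- library. Among entries with at least 1 RPKM in both controls, 28 had 0 counts, of which 17 carry systematic names and 11 are named genes. Against a floor of 3 counts in the ARID1A+/- library, ENPP1, an ectoenzyme that makes pyrophosphate, was at least 439-fold lower than in the same-kit control, where it had 975 counts. LPL, the lipoprotein lipase, was at least 261-fold lower and was also at 0 counts in all 4 ARID1A-/- libraries. SP140L was at least 204-fold lower and at most 0.0253 RPKM in those libraries. TRIM21, a ubiquitin ligase that binds antibodies inside cells, was at least 154-fold lower. It was likewise nearly absent from line 2 (at most 0.0179 RPKM) but stood at 11.7 and 17.5 RPKM in line 1. SLC19A3, a thiamine transporter, was at least 182-fold lower and was kept by both ARID1A-/- lines at 1.42 to 5.87 RPKM. The remaining genes at 0 counts were MAMLD1, METTL24, RAI2, SYN3, MAGEA4 and S100A11. In the other direction, 15 entries had 0 counts in both controls and at least 1 RPKM in the ARID1A+/- line, all with systematic names and at most 6 counts.

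Cancer-testis antigens, genes normally active in germ cells and silenced elsewhere by promoter methylation, held several genes that were lower. Of 36 listed genes 10 were measured, and 5 of the 10 were lower than both controls, beside 1.69% of all genes, with none higher. The median difference was -1.55 against the same-kit control and -1.06 against the SMARTer control, beside medians over all genes of -0.03 and 0.12. Over all 31 genes of the list in the tables, most of them below the expression limit, the median difference from the same-kit control was -0.06. MAGEA4 had 0 counts against 8.70 and 3.70 RPKM in the KAPA and SMARTer controls, and 0 in the 4 ARID1A-/- libraries. MAGEA3 stood at 1.40 RPKM against 27.7 and 12.4, and PRAME at 3.60 against 32.8 and 19.996. The ARID1A-/- libraries were low as well, at 0.266 to 2.27 RPKM for MAGEA3 and 0.262 to 1.72 for PRAME. MAGEC1 stood at 4.63 RPKM against 23.4 and 12.7. Its level was 37.1 (KAPA) and 25.4 (SMARTer) in ARID1A-/- line 1 and 6.49 and 4.34 in line 2. MAGEC2 (62.5 RPKM against 57.5 and 45.4) and MAGEA2 (21.6 against 20.1 and 16.4) were not lower, so the members did not all differ. They were the 2 of the 10 above 0 against the same-kit control, and 8 were below. How the counting treated reads shared with the listed gene MAGEA2B is not known, so the MAGEA2 value is uncertain. MAGEA6 stood at 1.51 RPKM against 15.9 and 7.92, with 0.493 to 3.63 in the ARID1A-/- lines. MAGEA3 and MAGEA6 are near-identical copies and their values are uncertain, since the counting could split reads between them. Their sequences over the 250 bases before the annotated start are identical at 250 of 250 positions, and are shown with that of MAGEA4 because these genes were lower together. The sequences are shown from RefSeq on GRCh38.p14, 5′ to 3′ on the gene's strand, with each CG dinucleotide (the site of methylation) in capitals.
MAGEA3: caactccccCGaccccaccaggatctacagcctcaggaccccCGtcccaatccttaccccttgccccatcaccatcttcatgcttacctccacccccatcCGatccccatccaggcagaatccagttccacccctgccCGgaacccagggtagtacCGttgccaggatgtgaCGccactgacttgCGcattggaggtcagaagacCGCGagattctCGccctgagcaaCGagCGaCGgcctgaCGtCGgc
MAGEA4: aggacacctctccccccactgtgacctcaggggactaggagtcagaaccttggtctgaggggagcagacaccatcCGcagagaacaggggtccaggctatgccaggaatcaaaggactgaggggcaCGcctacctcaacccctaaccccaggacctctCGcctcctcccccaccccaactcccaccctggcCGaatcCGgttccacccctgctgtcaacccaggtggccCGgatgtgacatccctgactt
The MAGEA3 sequence lies at chrX:152698544-152698793 and that of MAGEA4 at chrX:151912224-151912473, both on the plus strand, and the MAGEA6 copy lies at chrX:152769690-152769939 on the minus strand. CG, which reads the same on both strands, occurs 15 times upstream of MAGEA3 and 6 times upstream of MAGEA4. Of 27305 RefSeq promoters cut to the same window, 93.6% hold at least 1 CG and the median is 11. Methylation was not measured.

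Most adrenergic factors were less than 2-fold from the controls. Of 27 measured genes 3 were lower than both controls (beside 1.69% of all genes) and none was higher, and the median difference was 0.11 against the KAPA but -0.29 against the SMARTer control. HAND2 stood at 319.5 RPKM against 349 and 321. GATA3 stood at 109.96 RPKM, between the KAPA (70.8) and the SMARTer control (142). INSM2, a zinc-finger factor of neuroendocrine cells, was among the lower genes, at 9.47 RPKM against 69.3 and 75.9. ZNF536, a zinc-finger repressor of neuronal differentiation, stood at 0.540 RPKM against 3.18 and 2.36. MYCN stood at 783 RPKM against 1226 in the KAPA and 3663 in the SMARTer control, so the controls differed more from each other than the ARID1A+/- line did from the nearer one. In the catecholamine and secretory granule list 2 of 16 genes were 2-fold higher than the same-kit control and 1 was lower (beside 2.46% and 2.76% of all genes). Only NPY, the sympathetic neuropeptide, was so against both controls, at 31.5 RPKM against 7.09 and 9.21.

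Genes of neuronal structure were largely level, with 1 of 35 higher and 3 lower than the same-kit control (beside 2.46% and 2.76% of all genes). The 1 gene that was lower than both controls was STMN2, a microtubule regulator of growing axons, at 19.5 RPKM against 95.3 and 157. The ARID1A-/- libraries kept STMN2 at 97.9 to 205 RPKM, so the ARID1A+/- library was again the lowest of the 7. Among 34 ion channels and receptors 1 was higher than both controls and 3 were lower (beside 1.17% and 1.69% of all genes): the glutamate receptor subunit GRIN3A stood at 5.34 RPKM against 1.43 and 1.35, and P2RX7, SCN3B and CHRNA7 were lower by -1.61, -1.37 and -1.13.

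Of 37 axon guidance genes 4 were higher than both controls and none was lower (beside 1.17% and 1.69% of all genes). NRP2, a semaphorin co-receptor, stood at 59.8 RPKM against 25.1 and 21.2, and its partner receptors PLXNA2 and PLXNA4 at 7.43 against 1.98 and 2.42 and at 2.30 against 0.209 and 0.245. The fourth was EFNA2. Of 31 measured neurogenic and neural crest factors 5 were higher and 2 lower than both controls (beside 1.17% and 1.69% of all genes). LHX9, a LIM homeobox factor, stood at 15.7 RPKM against 3.50 and 5.20. DLX1 stood at 13.1 RPKM against 2.90 and 2.42, and the nuclear receptor RORB at 10.97 against 3.68 and 3.92. NHLH2, a neuronal helix-loop-helix factor, went the other way, at 0.124 RPKM against 4.46 and 9.16, while the ARID1A-/- lines had 7.51 to 25.2. Among 17 HOX genes 2 were higher than both controls, HOXC9 (1.32) and HOXA10 (1.17), and none was lower (same shares of all genes).

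Of 24 measured mesenchymal effectors 5 were higher and 2 lower than both controls (beside 1.17% and 1.69% of all genes). GJA1 was the furthest above them. MMP2, a matrix metalloproteinase, stood at 74.2 RPKM against 26.4 and 23.1, LGALS1 (galectin) at 42.9 against 7.48 and 10.1, and CDH11, a mesenchymal cadherin, at 26.6 against 11.9 and 11.01. ACTA2, smooth muscle actin, reached only 2.01 RPKM against 0.135 and 0.340. S100A11 and VIM were lower. VIM, the vimentin filament that is a standard mesenchymal marker, stood at 9.34 RPKM against 44.5 and 44.2. All 4 ARID1A-/- libraries held VIM at 69.7 to 158 RPKM, on the other side of the controls. CD44, another such marker, was at or below 0.130 RPKM in the ARID1A+/- library and both controls. Of 23 mesenchymal transcription factors 2 were higher than both controls, the zinc-finger factor KLF4 at 16.96 RPKM against 3.98 and 6.10 and TBX18 at 6.24 against 2.37 and 1.56, and none was lower (same shares of all genes).

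Of 28 measured collagens and matrix genes 4 were higher than both controls and 1 was lower (beside 1.17% and 1.69% of all genes). Against the same-kit control 22 of the 28 were above 0 and 6 below, with a median of 0.30. Of the 10054 genes ordered along the chromosomes below, which passed a limit of 3 RPKM in place of 1, 45.5% were above 0. Over all 46 genes of the list in the tables, with those below the expression limit, the median was 0.03. The limit lets in genes that reach it in the ARID1A+/- library alone, such as DCN and COL5A2. LUM, a small proteoglycan that binds collagen, stood at 13.7 RPKM against 1.72 and 2.04. COL3A1 stood at 6.48 RPKM against 1.602 and 1.523. DCN, another small proteoglycan, stood at 1.75 RPKM against 0.0326 and 0.301, and COL5A2 is described above. COL1A1 was lower, at 17.1 RPKM against 62.6 and 60.2, with 156 and 171 RPKM in ARID1A-/- line 1 and 19.9 and 30.3 in line 2. Of 10 fibroblast markers 7 were measured, and COL3A1, DCN, LUM and COL1A1 belong to both lists. The other measured markers were PDGFRA and PDGFRB, which were higher than both controls, and THY1, at 24.8 RPKM against 19.1 and 18.4. Thus 5 of the 7 were higher and 1 was lower than both controls, with median differences of 1.41 (KAPA) and 1.22 (SMARTer). Over all 10 markers the median against the KAPA control was 0.84. The summed level of the 10 was 111 RPKM in the ARID1A+/- library, 101 in the KAPA and 100.04 in the SMARTer control. COL1A1 made up 17.1, 62.6 and 60.2 RPKM of these sums, so their closeness does not mean that the markers were level. The fibroblast markers COL1A2 and POSTN were at or below 0.0336 RPKM and FAP had 0 counts in all 3 libraries. The part of other cells in these differences was not tested.

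Of 29 measured receptor kinases and growth factor genes 5 were higher and 3 lower than both controls (beside 1.17% and 1.69% of all genes). PDGFRB, a receptor for platelet-derived growth factor, stood at 14.01 RPKM against 3.58 and 4.07, and PDGFRA at 32.7 against 12.5 and 13.5. MET, the receptor of hepatocyte growth factor, was lower, with 5 counts (0.0204 RPKM) against 3.20 and 1.51 RPKM, and was also at most 0.669 in the ARID1A-/- lines. FGFR3 stood at 1.04 RPKM against 3.51 and 3.48, and FGFR4 at 0.714 against 2.80 and 2.77.

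In the Notch list 1 of 19 measured genes was higher than both controls and 3 were lower (beside 1.17% and 1.69% of all genes). The ligand JAG2 stood at 10.4 RPKM against 2.07 and 4.02. Beside MFNG, the atypical ligands DLK1 (3.85 RPKM against 19.99 and 22.5) and DNER (0.0522 against 2.35 and 2.00) were lower. In the TGF-beta and BMP list 2 of 30 were higher, the ligand TGFB2 (1.02) and its binding protein LTBP1 (1.06), and 2 were lower, BMP7 (-2.92) and the BMP antagonist CHRD (-1.14), read against the same shares of all genes.

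Several lists held no gene 2-fold apart from the same-kit control: 75 cytosolic ribosomal proteins, 42 cell cycle genes, 29 MYC targets of ribosome biogenesis, 32 genes of the unfolded protein response, 12 heat shock proteins, 18 immediate early genes and 28 Polycomb subunits. Other growth and stress lists held a few, beside 2.46% of all genes higher and 2.76% lower than the same-kit control. Among 21 p53 targets it was TP53I3 (1.01), and among 30 glycolysis and hypoxia genes ADM (-1.84) and EGLN3 (-1.77). Among 31 lipid synthesis genes they were PMVK (-1.11) and LPL (-2.87). Of 21 apoptosis regulators it was 1, HRK (1.63), which was not 2-fold from the SMARTer control. Medians of several of the lists without such genes, but not of all, depended on the control. Ribosomal proteins were at -0.05 against the KAPA and -0.53 against the SMARTer control and cell cycle genes at -0.02 and 0.40. Immediate early genes were at 0.34 and -0.58 and heat shock proteins at -0.23 and 0.61. The controls differed from each other by a median of 0.53, -0.32, 0.96 and -0.83 in these 4 lists (SMARTer minus KAPA). In each of the 4 this was more than the ARID1A+/- line differed from its same-kit control. MYC targets went the other way, at -0.26 against the KAPA and 0.02 against the SMARTer control, with -0.22 between the controls. Of these 29 genes, 24 were below 0 against the same-kit control and 5 above. Unfolded protein response genes were at -0.05 and -0.38 (controls 0.18 apart), and Polycomb subunits at -0.01 and -0.02 (controls -0.08 apart).

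**Figure D3:**
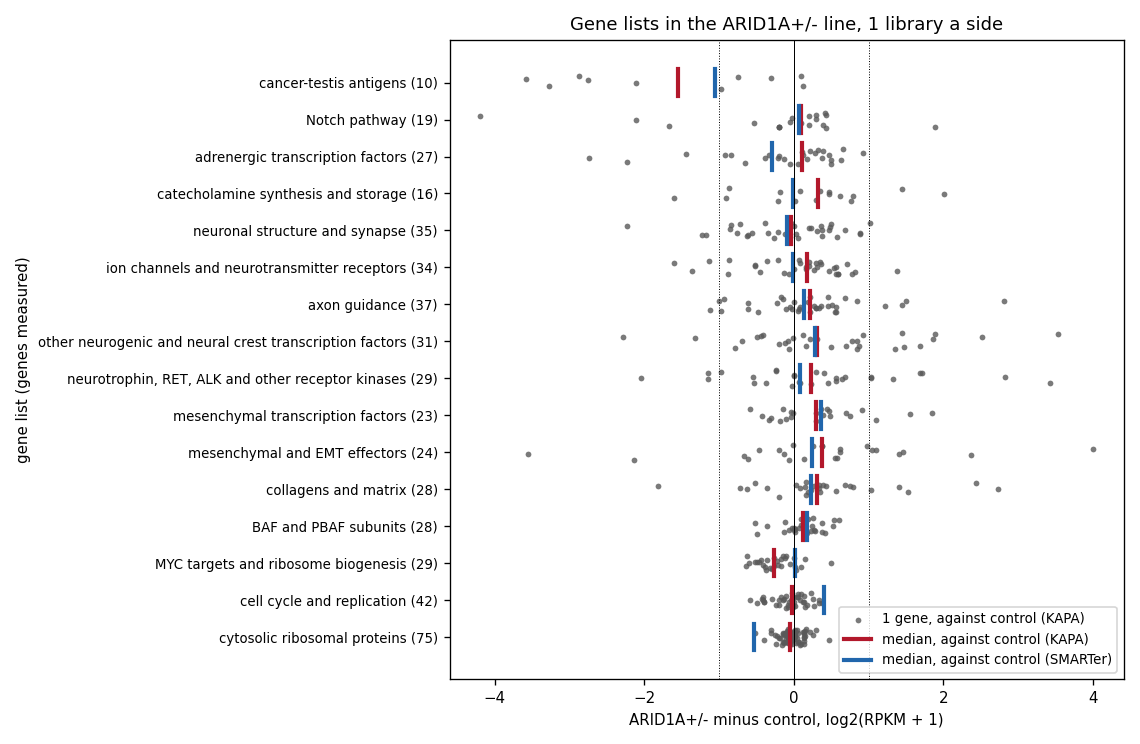
Each grey point is 1 measured gene's difference from the KAPA control on the log2(RPKM + 1) scale, in 16 gene lists with the number of measured genes in brackets; bars are list medians against the KAPA (red) and SMARTer (blue) control, and dotted lines mark 2-fold. Cancer-testis antigens have their median beyond 2-fold against both controls, and the MYC target, cell cycle and ribosomal protein lists at the foot hold no point beyond it.

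Ordered along the chromosomes, 2 runs of neighbouring genes stood apart from the controls, found by a moving median chosen after values were seen (41 genes, at least 0.35 from the centre against both controls). The ordered genes had at least 3 RPKM in the ARID1A+/- or same-kit control library and a match in RefSeq, and protocadherins were left out. On chromosome 4, the first 63 of 361 ordered genes, from ZNF595 to HMX1, had a median difference of -0.67 against the KAPA control and -0.45 against the SMARTer control. The run was picked from these differences among 10054 ordered genes, so its median and its 57 of 63 genes below 0 against the same-kit control describe it and test nothing. FGFR3 and MSX1 lie in this run, and so does CYTL1, which was higher. The same genes had medians of -0.82 (KAPA) and -0.67 (SMARTer) in ARID1A-/- line 1, each against its same-kit control, and of -0.05 and 0.09 in line 2. On chromosome 18, the last 48 of 153 genes, from ACAA2 to PARD6G, had a median of 0.76 against the KAPA and 0.66 against the SMARTer control, and 48 of 48 were above 0 against the same-kit control, which is a description in the same way. Here the ARID1A-/- lines lay between -0.26 and 0.03. The median difference of 0.76 corresponds to a 1.69-fold higher value of RPKM + 1, and CDH7 (1.32) is the named gene of this run. DNA copy number was not measured, and its part in these runs was not tested.

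**Figure D4:**
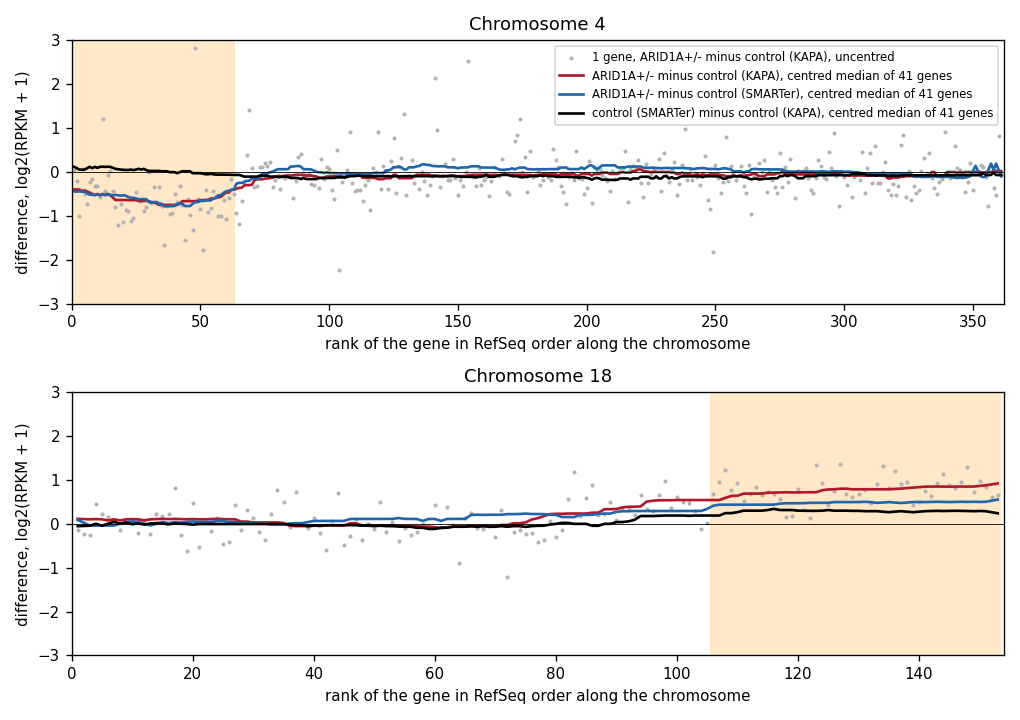
Genes of chromosomes 4 and 18 are ranked along the x axis in RefSeq order; grey points are single differences from the KAPA control and lines are medians of 41 neighbouring genes, centred on the median of all ordered genes, for the ARID1A+/- line against each control and for the controls against each other. The shaded runs hold 63 genes on chromosome 4, where both ARID1A+/- lines on the plot lie below 0, and 48 genes on chromosome 18, where both lie above 0 and the control-to-control line lies above 0 by less.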

How the data were processed

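RNA of control, ARID1A-/- and ARID1A+/- NGP lines was sequenced in 7 libraries. Per the labels' protocols, ribosomal RNA was removed with the SMARTer or KAPA kit and libraries went on with NEBNext Ultra and single-end reads of 75 bases; the labels also name polyadenylated RNA, so how RNA was selected is uncertain. The submitters' processing notes name HISAT2 2.1.0 and hg19. The program that counted reads, with its annotation and use of strand, is not given in the sources used here, so overlapping and antisense genes are uncertain. For each library the authors deposited whole-number counts and RPKM values per entry, and the deposited RPKM equals count by length and total count to within 0.000501%.

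The difference of log2(RPKM + 1) was taken between the ARID1A+/- library and each control, with a filter of 1 RPKM in it or in the same-kit control. The members and gene lists (36, and 7 marker lists) were chosen with earlier results of these data known. Named were BAF subunits, the 15 largest differences each way among genes 2-fold from both controls with at least 20 counts in the higher library, named genes at 0 counts, and up to 4 genes of each list that were furthest from the same-kit control among those 2-fold from both. Entries with systematic names were left out of the ranked parts, and not all genes of the rule are printed. Some genes are not reported here. CD44, THY1, HRK, FGFR3, FGFR4, PDGFRA, DCN, DLX1, RORB, MSX1, MMP2, CDH11, ACTA2, COL1A2, FAP, POSTN, MAGEA2, MAGEC1, MAGEC2, the adrenergic factors that did not differ and the genes of the closing observations were chosen after their values were seen. So were TH and DBH. Intervals of a ratio are exact binomial intervals (95%) on the counts of 2 libraries. Analysis used Python 3.11.15 with pandas 2.3.3 and scipy 1.17.1, and TMM factors came from edgeR 4.0.16; no count test was run, since 1 side has 1 library. The calls were also run on simulated counts that varied by counting error only, which cannot show how often separate cultures of 1 line differ. Gene order and promoter sequences were taken from RefSeq (GRCh38.p14) by symbol. Only 70.8% of members had a promoter entry (60.2% of the genes higher and 62.1% of those lower than both controls), so a comparison of promoter composition is void and nothing is drawn from it. Alternatives were other pseudocounts, filters, scalings, thresholds and controls.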

Additional observations from a re-analysis of the deposited data

Results flagged for a closer look

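Of the genes named by the rule, 8 were at least 2-fold from both controls in the ARID1A+/- line and at least 1.5-fold the other way in all 4 ARID1A-/- libraries, each against its same-kit control; whether the genotypes differ was not tested. HOXA10 was higher by 1.17 in the ARID1A+/- line, with -2.15 to -1.63 in the ARID1A-/- libraries, the one gene of the 8 beyond 2-fold there in all 4. Also higher were JAG2 (1.89, against -1.39 to -0.71), CDH7 (1.32, against -0.86 to -0.69) and TBX18 (1.10, against -1.02 to -0.76). Lower were TBX3 (-3.04, against 0.79 to 1.93), VIM (-2.14, against 0.63 to 1.81), ADM, a vasodilator peptide gene (-1.84, against 0.81 to 2.06), and CHRNA7, a nicotinic receptor subunit (-1.13, against 0.65 to 1.34). PLAC9 (2.37, against -2.62 to -2.33) and HOXA11-AS (2.52, against -1.68 to -0.83), named after their values were seen, met the same limits. No group had enough libraries for a check of single outlying libraries.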

How the results depend on the processing

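Counts of genes apart from the controls depended on the threshold and on how low values were treated. With a pseudocount of 0.1, 576 genes were higher and 664 lower than the same-kit control, and 305 and 459 than both controls. With a filter of 5 RPKM, 159 were lower than the same-kit control and 101 than both. At a threshold of 1.5-fold 924 were higher and 988 lower than the same-kit control, and at 4-fold 45 and 58. TMM scaling, quantile normalization, a pseudocount of 0.5, no filter and the mean of both controls kept each count within 1.5 times of that reported. Without control replicate 2, against the SMARTer control, the counts were 430 and 555, and the median of all genes moved from -0.03 to 0.11, so list medians close to 0 are not distinguished from the difference between the controls. Of the 77 named genes beyond 2-fold, all 77 kept direction and 2-fold size under TMM scaling and under quantile normalization. The other alternatives could not have changed this for most genes, so their outcome tests nothing. A filter leaves a gene's difference as it was, also for the 57 that passed 5 RPKM, and a smaller pseudocount only enlarges it. Being 2-fold from both controls was part of how most were chosen, which fixes the outcome for the other choices of control. No paired analysis was possible because the ARID1A+/- line has 1 library. Of the genes 2-fold from the same-kit control, 57 higher and 71 lower ones had under 20 counts in the higher library.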

Other observations

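The genes of this part other than GNG11 lie outside the lists and were chosen after their values were seen. ETS1 stood at 23.6 RPKM against 3.73 (KAPA) and 4.02 (SMARTer), and its neighbour FLI1, another ETS-family factor, at 5.26 against 0.399 and 0.709. HOXA11-AS, an antisense transcript of the HOXA cluster, stood at 10.6 RPKM against 1.03 and 2.26, beside at most 0.142 in the ARID1A-/- lines. IGF2-AS stood at 5.86 RPKM against 0.504 and 1.10, though without strand its reads may come from IGF2. MIR503HG stood at 20.6 RPKM against 1.70 and 3.32. PLAC9 stood at 24.8 RPKM against 4.01 and 5.14 and was at 0 in all 4 ARID1A-/- libraries. GNG11, a G protein subunit of the G protein signalling list, stood at 2.60 RPKM with 82 counts against 2 and 3 counts in the controls, and was also at 0 in the ARID1A-/- libraries.

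Lower than both controls were HBE1, embryonic globin, with 1 count against 97 and 569 and with 0 RPKM in all 4 ARID1A-/- libraries, and IL13RA2, a decoy receptor of an interleukin, with 3 counts against 282 and 384. IL13RA2 was likewise at most 0.0456 RPKM in the ARID1A-/- libraries. ACAD11 stood at 6.78 RPKM against 41.1 and 34.9, close to the 3.87 to 6.25 of the ARID1A-/- libraries, and its overlapping read-through entry moved with it. SLC17A8, a vesicular glutamate transporter, stood at 6.47 RPKM against 48.1 and 51.3. Its level was 33.9 (KAPA) and 27.5 (SMARTer) in ARID1A-/- line 1 and 3.68 and 6.51 in line 2. Of 22 protocadherin gamma entries, which share exons and so are not separate measurements, 20 were 2-fold higher than the same-kit control and 0 than both, with median differences of 1.09 and 0.74. Medians were of similar size in the ARID1A-/- lines, each against its same-kit control. They were 0.77 (KAPA) and 0.86 (SMARTer) in line 1 and 1.06 and 1.01 in line 2.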
